A study of Homo sapiens with 18 samples.

Results

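The BCL2 family decides at the outer mitochondrial membrane whether a stressed cell dies by apoptosis. 10 of its genes were followed here, chosen by gene symbol: the anti-apoptotic BCL2, BCL2L1 and MCL1, the effectors BAX and BAK1, and the BH3-only genes BBC3, PMAIP1, BCL2L11, BID and BIK. Each symbol matched 1 row in each of the 6 comparison tables, so all 10 members were measured and tested, out of 26702 genes in the tables. RNA was sequenced after poly(A) selection from U2OS cells, a human osteosarcoma line, in 6 groups of 3 libraries. Cells had received a control siRNA (siControl), an siRNA against ANKRA2 (siANKRA2) or an siRNA against RFXANK (siRFXANK). In each case they were then kept for 24 h in DMSO solvent or in 10 µM Nutlin-3a. All 18 libraries thus come from 1 cell line. The siRFXANK libraries carry labels of a different form from the others and have no siControl libraries of their own, so what siRFXANK did and what a separate run may have added cannot be told apart. Their labels also name the cells epithelial.

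Anti-apoptotic members of the family hold the effectors in check. BAX and BAK1, once active, form pores in the mitochondrial outer membrane and release cytochrome c, which starts caspase activation. BH3-only proteins act upstream as stress sensors that neutralise the anti-apoptotic proteins or activate the effectors directly. BBC3 (PUMA), PMAIP1 (NOXA) and BAX are textbook targets of p53. Nutlin-3a keeps the ubiquitin ligase MDM2 from binding p53, which then accumulates. RFXANK is a subunit of the RFX complex that activates MHC class II genes, and ANKRA2 is its close paralog among the ankyrin repeat proteins.

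RefSeq promoter windows on GRCh38.p14, from 250 bases before to 50 bases after a start site, were held for 8 of the 10 members in 13 entries. They were searched on both strands for the p53 half-site (a decamer, part of a full p53 site), for GTTGCC (part of the X-box bound by RFX factors) and for the E-box CACGTG. The 4 windows below are shown because they belong to the members with the largest response to Nutlin-3a (BBC3 and BCL2L1) and to both effectors, and capitals mark the matches. BBC3 lies at chr19:47232618-47232917 (minus strand), BCL2L1 at chr20:31723914-31724213 (minus strand), BAX at chr19:48954625-48954924 (plus strand) and BAK1 at chr6:33580227-33580526 (minus strand).
BBC3: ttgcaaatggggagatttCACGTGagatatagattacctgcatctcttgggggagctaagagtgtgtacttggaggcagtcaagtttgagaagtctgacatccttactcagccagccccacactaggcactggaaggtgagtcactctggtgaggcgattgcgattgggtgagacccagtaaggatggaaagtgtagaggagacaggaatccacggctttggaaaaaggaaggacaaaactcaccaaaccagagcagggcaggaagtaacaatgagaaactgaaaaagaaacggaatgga
BCL2L1: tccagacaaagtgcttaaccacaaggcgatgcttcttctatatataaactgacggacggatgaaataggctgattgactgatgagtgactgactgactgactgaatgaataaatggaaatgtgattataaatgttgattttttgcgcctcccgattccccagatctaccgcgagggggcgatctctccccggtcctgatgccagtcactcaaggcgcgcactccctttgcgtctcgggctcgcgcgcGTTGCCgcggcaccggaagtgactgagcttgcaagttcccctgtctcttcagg
BAX: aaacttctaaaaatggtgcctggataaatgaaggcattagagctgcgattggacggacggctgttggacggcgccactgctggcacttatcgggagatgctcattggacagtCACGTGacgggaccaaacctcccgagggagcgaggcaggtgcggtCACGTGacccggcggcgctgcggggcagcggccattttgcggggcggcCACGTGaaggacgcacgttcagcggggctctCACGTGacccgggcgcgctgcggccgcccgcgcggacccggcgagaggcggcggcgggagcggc
BAK1: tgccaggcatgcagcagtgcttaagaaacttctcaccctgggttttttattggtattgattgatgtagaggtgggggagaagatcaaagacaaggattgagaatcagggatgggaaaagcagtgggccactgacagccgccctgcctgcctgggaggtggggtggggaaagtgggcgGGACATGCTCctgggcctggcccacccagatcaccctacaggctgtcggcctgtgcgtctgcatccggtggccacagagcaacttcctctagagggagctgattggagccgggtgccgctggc

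The BAX window held CACGTG 4 times, starting 138, 93, 45 and 14 bases before the start site. Across 35116 RefSeq promoter windows of the same length, 7.26% held CACGTG at least once and 0.0142% held it 4 or more times. The BBC3 window held it once, 232 bases before the start, and so did 2 of the 5 BID windows, so that 3 members had a match. BAK1 had the single match to the p53 half-site among the 13 entries, 73 bases before the start, where 6.63% of all windows held one. Full p53 sites were not searched for. GTTGCC stood 3 bases before the start in the BCL2L1 window shown and was also found in BCL2L11, with 12.2% of all windows holding it. BCL2L1 has 2 entries, and the other, at chr20:31722819-31723118, held none of the motifs. These are matches of letters in a short window and no binding was measured.

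On GRCh38 with GENCODE 29, the anti-apoptotic genes span chr18:63123346-63320128 (BCL2), chr20:31664452-31723989 (BCL2L1) and chr1:150574551-150579738 (MCL1), all on the minus strand. The effectors span chr19:48954815-48961798 (BAX, plus strand) and chr6:33572547-33580293 (BAK1, minus strand). Of the BH3-only genes, BBC3 (chr19:47220822-47232766) and BID (chr22:17734138-17774770) lie on the minus strand. PMAIP1 (chr18:59899948-59904306), BCL2L11 (chr2:111119378-111168447) and BIK (chr22:43110748-43129712) lie on the plus strand. Values below are sums over whole genes and do not separate isoforms, such as the long and short forms of BCL2L1 and MCL1 that act in opposite directions.

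The files used here hold 1 row per gene and comparison, with the mean normalized count over all libraries of the fit, a log2 fold change, its standard error (SE) and p-values from DESeq2, and no value per library. Depth per library is therefore unknown, and levels are given per group. A group level is the deposited mean shared out over the 6 groups by the fold changes, in normalized counts. Each group had 3 libraries, and nothing in the labels says that these came from separate cultures, so the errors may cover technical spread alone. A level scale rebuilt from the standard errors lay at 0.889 to 1.20 times the deposited one over the 10 members, and fold changes do not depend on it. A gene was called where the adjusted p was under 0.05. The knockdown targets followed their labels, with ANKRA2 at 28.5% of siControl in DMSO and 16.7% in Nutlin-3a after siANKRA2, and RFXANK at 12.9% and 11.2% after siRFXANK. Each target also moved with the other siRNA, RFXANK to 77.2% and 73.8% of siControl with siANKRA2, and ANKRA2 to 166% and 137% with siRFXANK, and all 4 of these changes were called. ANKRA2 itself rose with Nutlin-3a in siControl cells (log2 fold change 1.95, SE 0.0979). MDM2 and CDKN1A, both direct targets of p53, rose by 3.38 and 3.27 on the log2 scale in siControl cells. Of 9 bone and mesenchymal markers, 7 were in the tables and 5 had a mean of at least 100, led by COL1A1 with a mean of 64042 and VIM with 55026. The bone and mesenchymal markers COL1A2 and BGLAP had means of 33.2 and 2.08, and SP7 and IBSP were absent. Of 7 epithelial markers 3 reached a mean of 100, CLDN4 with 599, EPCAM with 161 and KRT14 with 159. CDH1 had a mean of 32.9, and KRT5, KRT19 and ESRP1 had lower ones. No leukocyte marker reached a mean of 100.

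Nutlin-3a raised 7 of the 10 members in siControl cells, BCL2L1, MCL1, BAX, BAK1, BBC3, PMAIP1 and BIK, and lowered BCL2 and BCL2L11. BID did not pass the test. For comparison, 21.9% of all genes tested were called higher and 21.2% lower. All genes include those with few counts, which are harder to call. The share among genes with counts like those of the members is not given here. The same limit holds for the shares of all genes below. The median log2 fold change was 0.65 over the 10 members and 0.02 over all genes. Both effectors rose, and pro- and anti-apoptotic members rose side by side. In RNA of a whole culture, a change in every cell and a change in the share of cells that express a gene cannot be told apart.

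BBC3, whose product PUMA binds all anti-apoptotic members, had the largest change. Its level was 669 normalized counts in siControl cells in DMSO and 2615 in Nutlin-3a. That is a 3.91-fold rise (log2 fold change 1.97, SE 0.0623, DESeq2 adjusted p = 8.74e-217). PMAIP1, which encodes the MCL1-binding NOXA, rose less, from 1705 to 2392 normalized counts (log2 fold change 0.49, SE 0.0454). BIK, a BH3-only gene of the endoplasmic reticulum, was the member with the fewest counts and the widest error. It rose from 70.9 to 151 normalized counts, with a log2 fold change of 1.09 and a 95% interval of 0.74 to 1.45. BCL2L11, which encodes BIM, went the other way, from 809 to 574 normalized counts (log2 fold change -0.50, SE 0.063, DESeq2 adjusted p = 3.1e-14). Of its exon bases, 10.9% are also covered by MIR4435-2HG on the other strand, which had a mean of 1440 normalized counts. BID, which links death receptors to mitochondria once cleaved by caspase-8, stood at 1047 and 991 normalized counts. Its log2 fold change was -0.08 with a 95% interval of -0.20 to 0.04.

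The anti-apoptotic members did not move together in siControl cells. BCL2L1, which encodes BCL-XL, rose from 8122 to 19938 normalized counts, a log2 fold change of 1.30 (SE 0.0303), and its deposited p-value is listed at 0. MCL1, a short-lived anti-apoptotic protein, rose from 4673 to 6744 normalized counts (log2 fold change 0.53, SE 0.0366, DESeq2 adjusted p = 4.04e-46). BCL2, the founding member of the family, fell from 279 to 138 normalized counts (log2 fold change -1.02, SE 0.121, DESeq2 adjusted p = 4.43e-16). Among the effectors, BAX rose from 3738 to 7112 normalized counts (log2 fold change 0.93, SE 0.0549) and BAK1 from 707 to 1200 (log2 fold change 0.76, SE 0.0665). In BCL2L1, 43.0% of the exon bases are also covered by ABALON on the other strand, and whether the counting used strand is not given in the sources used here. ABALON had a mean of 21.8 normalized counts.

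**Figure D1:**
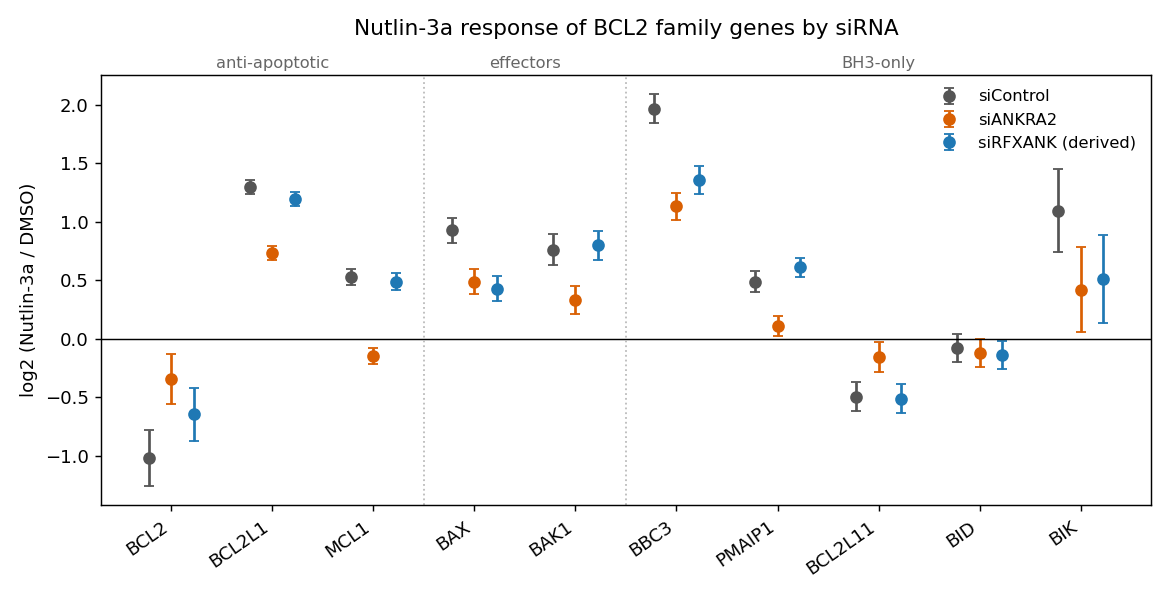
The log2 ratio of Nutlin-3a to DMSO is plotted for each of the 10 members in siControl, siANKRA2 and siRFXANK cells, with points for the estimates and bars for 95% intervals (1.96 SE). BBC3 is highest in all 3 kinds of cells, at 1.97, 1.13 and 1.36, and MCL1 lies above 0 in siControl and siRFXANK cells and below 0 in siANKRA2 cells.

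In siANKRA2 cells, Nutlin-3a raised BCL2L1, BAX, BAK1, BBC3 and PMAIP1 and lowered BCL2 and MCL1, while BCL2L11, BID and BIK did not pass the test. The called shares of all genes were 15.5% higher and 17% lower, and the median over the members was 0.22 on the log2 scale, against 0.01 over all genes. MCL1 changed direction, from 9891 normalized counts in DMSO to 8951 in Nutlin-3a (log2 fold change -0.14, SE 0.0353, DESeq2 adjusted p = 0.000257). BBC3 went from 1089 to 2387 normalized counts (log2 fold change 1.13, SE 0.0598). BCL2L1 went from 16793 to 27946 (log2 fold change 0.73, SE 0.0294). Both remained the members with the largest rise. PMAIP1 was near the threshold, with a log2 fold change of 0.11 (SE 0.0435, DESeq2 adjusted p = 0.0335), and its adjusted p was 0.0809 with a t distribution of 12 degrees of freedom in place of the normal one. BCL2L11 fell just short, at -0.16 (SE 0.0651, DESeq2 adjusted p = 0.0518). It was called when only genes with a mean of at least 10 were tested (adjusted p = 0.043).

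The difference between the responses of siANKRA2 and siControl cells was itself tested, and 9 of the 10 members differed. The response was lower in siANKRA2 cells for 7 members and higher for BCL2 and BCL2L11, both of which had fallen in siControl cells. So all 9 moved towards a smaller response or, for MCL1, past 0. A smaller response was not always a lower level in Nutlin-3a. With siANKRA2, BCL2L1, MCL1, BAX, BAK1 and PMAIP1 were higher than with siControl in DMSO, by 1.05, 1.08, 0.59, 0.98 and 0.56. In Nutlin-3a they were still higher, by 0.49, 0.41, 0.15, 0.55 and 0.19. BBC3 was higher in DMSO (0.70) and lower in Nutlin-3a (-0.13), where BIK was lower too (-0.52). Among all genes, 12.5% had a lower and 11.4% a higher response. The median difference was -0.43 over the members and -0.02 over all genes. BBC3 had the largest difference, -0.84 (SE 0.0864, adjusted p = 2.5e-20). MCL1 differed by -0.67 (SE 0.0508, adjusted p = 8.97e-38), BCL2 by 0.67 with a wider error (SE 0.162, adjusted p = 0.000301) and BCL2L1 by -0.56 (SE 0.0422, adjusted p = 4.89e-38). The effectors differed alike in size, BAX by -0.44 (SE 0.0773) and BAK1 by -0.43 (SE 0.0911). PMAIP1 differed by -0.38 (SE 0.0629) and BCL2L11 by 0.34 (SE 0.0906). BIK was at -0.67 with a wide error (SE 0.26, adjusted p = 0.0415). That call was lost with a t distribution, where the adjusted p was 0.103. BID showed no detectable difference, at -0.04 with a 95% interval of -0.21 to 0.13. MDM2 and CDKN1A also responded less in siANKRA2 cells, by -1.19 (SE 0.069) and -1.85 (SE 0.0551), and their part in the members' differences was not tested. Their levels with siANKRA2 differed. CDKN1A was higher than with siControl in DMSO (2.04, SE 0.0398) and in Nutlin-3a (0.20, SE 0.0381). MDM2 was not called in DMSO (-0.11, SE 0.0506) and was lower in Nutlin-3a (-1.30, SE 0.0468).

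The response of siRFXANK cells has no deposited table and was derived from the siRFXANK and siControl tables. The called members were those called in siControl cells, with BCL2L1, MCL1, BAX, BAK1, BBC3, PMAIP1 and BIK higher and BCL2 and BCL2L11 lower, beside 22.8% of all genes higher and 22.5% lower. BBC3 rose from 1012 to 2593 normalized counts (log2 fold change 1.36, SE 0.0597) and BCL2L1 from 6400 to 14648 (log2 fold change 1.19, SE 0.0309). BAX rose from 6599 to 8880 (log2 fold change 0.43, SE 0.0541), the lowest estimate among the 7 that rose. BIK, at 0.51 (SE 0.194, adjusted p = 0.0201), was not called with a t distribution (adjusted p = 0.0524).

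Against siControl cells, 2 of the 10 members had a different response in siRFXANK cells, and both were lower, where 9.64% of all genes were lower and 11.6% higher. BBC3 differed by -0.61 (SE 0.0863, adjusted p = 1.21e-10). BAX differed by -0.50 (SE 0.077, adjusted p = 4.54e-09). Both had a higher level in DMSO than siControl cells had, as did MCL1, BAK1 and PMAIP1. The other 8 did not pass, with differences whose 95% intervals were -0.14 to 0.06 for MCL1, -0.14 to 0.22 for BAK1 and -0.19 to 0.16 for BCL2L11. PMAIP1 differed by 0.12 (SE 0.0625, adjusted p = 0.168). For BID the interval was -0.23 to 0.11, and for BCL2L1 -0.19 to -0.02 (adjusted p = 0.0805). BCL2L1 was called when only genes with a mean of at least 100 were tested (adjusted p = 0.0464). The intervals of BCL2, 0.04 to 0.70, and BIK, -1.10 to -0.06, were wide and missed the threshold after adjustment.

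**Figure D2:**
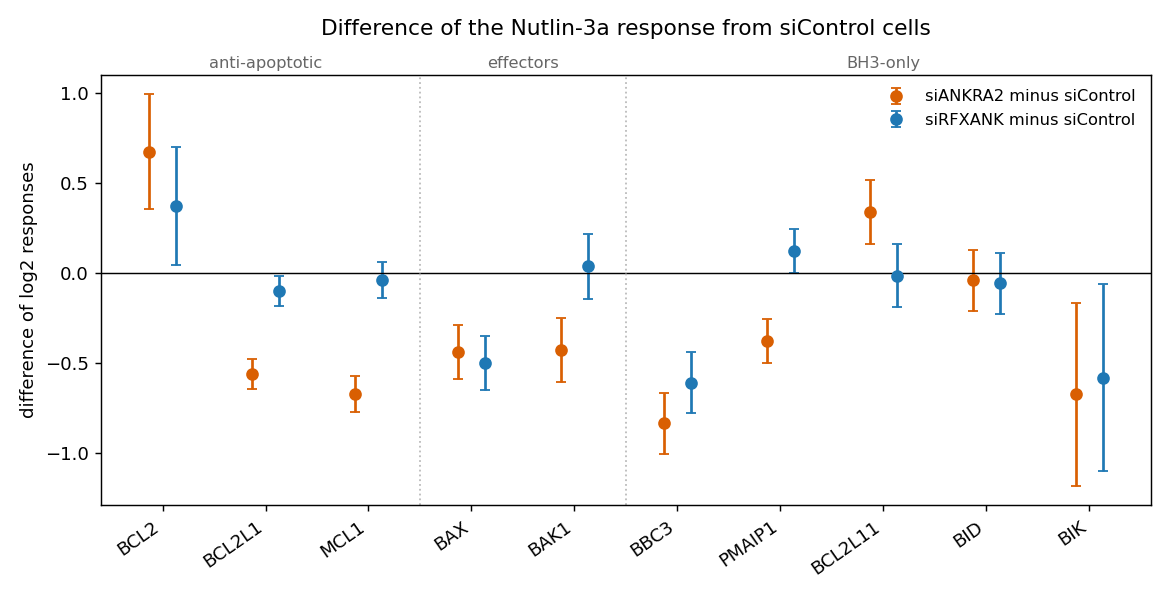
The difference of the log2 Nutlin-3a response from that of siControl cells is plotted for the 10 members in siANKRA2 and siRFXANK cells, with bars for 95% intervals (1.96 SE). In siANKRA2 cells BBC3 is lowest at -0.84 and BCL2 highest at 0.67, and in siRFXANK cells BBC3 and BAX lie lowest among the members with narrow bars, at -0.61 and -0.50.

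Depletion of ANKRA2 raised 8 of the 10 members in DMSO, that is without the drug. The 3 anti-apoptotic members, both effectors, BBC3, PMAIP1 and BID were higher, BCL2L11 was lower, and BIK did not pass. Of all genes, 24.3% were higher and 24.5% lower. The median over the members was 0.58 on the log2 scale, against 0.01 over all genes. MCL1 went from 4673 normalized counts with siControl to 9891 with siANKRA2 (log2 fold change 1.08, SE 0.0362, DESeq2 adjusted p = 4.56e-194). BCL2L1 went from 8122 to 16793 (log2 fold change 1.05, SE 0.0304, DESeq2 adjusted p = 7.85e-258). BAK1 went from 707 to 1398 (log2 fold change 0.98, SE 0.0661). For MCL1 and BAK1, siANKRA2 alone gave a higher level than Nutlin-3a gave in siControl cells. BBC3 was higher by 0.70 (SE 0.0653), BAX by 0.59 (SE 0.0551) and PMAIP1 by 0.56 (SE 0.0454) on the log2 scale. CDKN1A was also higher in these cells, by 2.04 (SE 0.0398). BCL2 was higher by 0.32 (SE 0.107, DESeq2 adjusted p = 0.00778) and BID by 0.20 (SE 0.0609, DESeq2 adjusted p = 0.00278).

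In Nutlin-3a, siANKRA2 cells had 7 members higher and 2 lower than siControl cells, with 24.6% of all genes higher and 25.5% lower. BCL2 now had the largest difference, at 138 normalized counts with siControl and 274 with siANKRA2 (log2 fold change 0.99, SE 0.122, DESeq2 adjusted p = 3.27e-15). BAK1 was higher by 0.55 (SE 0.0626), BCL2L1 by 0.49 (SE 0.0293) and MCL1 by 0.41 (SE 0.0357). PMAIP1, BID and BAX were higher by 0.19, 0.16 and 0.15. BIK was lower, at 151 against 105 normalized counts (log2 fold change -0.52, SE 0.172, DESeq2 adjusted p = 0.00557). BBC3 was at 2615 against 2387 normalized counts, a log2 fold change of -0.13 (SE 0.0566, DESeq2 adjusted p = 0.0411). The call of BBC3 was lost with a t distribution (adjusted p = 0.0785) and after centring on the median of genes with a mean of at least 100 (adjusted p = 0.0559). That of BID was lost with a t distribution (adjusted p = 0.052). BCL2L11 stood at 0.03 with a 95% interval of -0.10 to 0.16. The comparisons against siControl share their control libraries with the response of siControl cells.

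**Figure D3:**
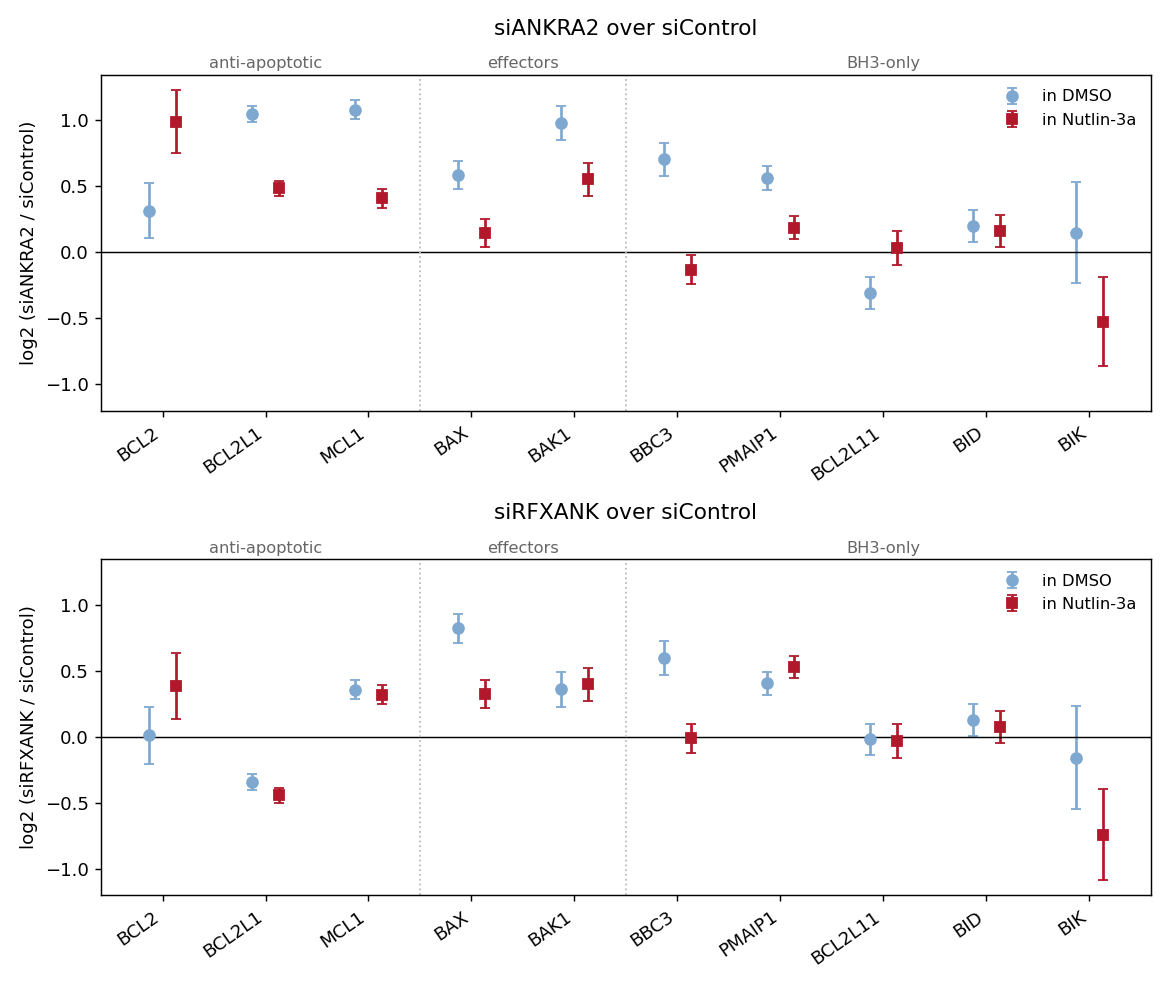
The log2 ratio of siANKRA2 (top) and siRFXANK (bottom) to siControl cells is plotted for each member in DMSO (circles) and Nutlin-3a (squares), with bars for 95% intervals (1.96 SE). BCL2L1 lies above 0 with siANKRA2, at 1.05 and 0.49, and below 0 with siRFXANK, at -0.34 and -0.44.

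With siRFXANK in DMSO, MCL1, BAX, BAK1, BBC3 and PMAIP1 were higher than with siControl, BCL2L1 was lower, and BCL2, BCL2L11, BID and BIK did not pass. The shares of all genes were 20.9% higher and 21.2% lower, and the member median was 0.24 on the log2 scale against 0.01. BAX had the largest difference, from 3738 to 6599 normalized counts (log2 fold change 0.82, SE 0.0549, DESeq2 adjusted p = 1.08e-48). BBC3 was higher by 0.60 (SE 0.0654), PMAIP1 by 0.40 (SE 0.0456), and BAK1 and MCL1 by 0.36 each. BCL2L1 was the lone member called lower, from 8122 to 6400 normalized counts (log2 fold change -0.34, SE 0.0315, DESeq2 adjusted p = 1.71e-26). In siANKRA2 cells the same gene was higher.

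With siRFXANK in Nutlin-3a, 5 members were higher and 2 lower, beside 19.8% and 19.6% of all genes. PMAIP1 led with 2392 normalized counts in siControl and 3443 in siRFXANK cells (log2 fold change 0.53, SE 0.0427, DESeq2 adjusted p = 2.26e-33). BAK1, BCL2, BAX and MCL1 were higher by 0.40, 0.38, 0.32 and 0.32. BCL2L1 was lower by a log2 fold change of -0.44 (SE 0.0296) and BIK by one of -0.74 (SE 0.175, DESeq2 adjusted p = 9.64e-05). BBC3 did not differ detectably, at 2615 and 2593 normalized counts and with a 95% interval of -0.12 to 0.10 on the log2 scale. Its level in DMSO had differed, and in Nutlin-3a the siControl and siRFXANK groups met.

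Ordered over the 6 groups, the levels of BCL2L1, MCL1, BAX and BAK1 were apart at each of the 5 steps from one group to the next, by at least 1.96 SE. The SEs of these steps were rebuilt from the deposited ones, and the steps were not adjusted for their number. BCL2L1 ran from 6400 normalized counts in siRFXANK cells in DMSO through 8122 in siControl DMSO, 14648 in siRFXANK Nutlin-3a, 16793 in siANKRA2 DMSO and 19938 in siControl Nutlin-3a to 27946 in siANKRA2 Nutlin-3a. MCL1 was lowest in siControl DMSO (4673) and highest in siANKRA2 DMSO (9891), with siRFXANK DMSO at 5983, siControl Nutlin-3a at 6744, siRFXANK Nutlin-3a at 8407 and siANKRA2 Nutlin-3a at 8951. For MCL1 both siANKRA2 groups therefore lay above the other groups. BAX rose from 3738 in siControl DMSO through 5614 in siANKRA2 DMSO and 6599 in siRFXANK DMSO to 7112, 7871 and 8880 in the Nutlin-3a groups of siControl, siANKRA2 and siRFXANK cells. BAK1 was at 707 in siControl DMSO, 907 in siRFXANK DMSO, 1200 in siControl Nutlin-3a, 1398 in siANKRA2 DMSO, 1579 in siRFXANK Nutlin-3a and 1762 in siANKRA2 Nutlin-3a. Its DMSO and Nutlin-3a groups overlap in this order, while those of BAX do not. For BAX that rests on a step close to the limit, from siRFXANK DMSO to siControl Nutlin-3a (0.11 on the log2 scale, SE 0.0542).

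Several neighbouring levels of the other members could not be told apart. BBC3 formed a low and a high set, with 669, 1012 and 1089 normalized counts in the DMSO groups of siControl, siRFXANK and siANKRA2 cells and 2387, 2593 and 2615 in the Nutlin-3a groups of siANKRA2, siRFXANK and siControl cells. Within these sets, siRFXANK and siANKRA2 in DMSO, and siRFXANK and siControl in Nutlin-3a, were within 1.96 SE. PMAIP1 stood at 1705, 2255 and 2521 in the DMSO groups of siControl, siRFXANK and siANKRA2 cells, and at 2392, 3443 and 2724 in the matching Nutlin-3a groups. Its siControl group in Nutlin-3a was not apart from siRFXANK or siANKRA2 cells in DMSO. BCL2 was at 279, 280 and 347 in DMSO in siControl, siRFXANK and siANKRA2 cells and at 138, 180 and 274 in Nutlin-3a. Its siANKRA2 level in Nutlin-3a was thus within error of siControl cells without the drug. BCL2L11 held 809, 797 and 653 normalized counts in DMSO and 574, 560 and 586 in Nutlin-3a, in that same order of siRNAs, with no neighbours apart among the 3 Nutlin-3a groups. BID ran from 991 to 1202 normalized counts, and none of its 5 neighbouring pairs was apart. BIK ran from 63.4 in siRFXANK DMSO to 151 in siControl Nutlin-3a, and the siControl Nutlin-3a group alone was apart from its neighbour.

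Divided by exon length, the levels of different members can be set side by side, with ranks that depend on the length used. BCL2L1 was the highest of the 10 in 5 of the 6 groups, from 2451 normalized counts per kb in siControl DMSO to 8433 per kb in siANKRA2 Nutlin-3a. In siRFXANK cells in DMSO, BAX was highest with 2551 per kb, ahead of BCL2L1 with 1931. BCL2 was the lowest in all 6 groups, between 11.7 and 29.5 per kb. By these lengths PMAIP1 led the BH3-only genes in every group, from 763 to 1541 per kb. BBC3, with the larger Nutlin-3a responses in all 3 kinds of cells, ran from 210 to 822 per kb. The exon lengths are unions over all annotated isoforms, 11765 bases for BCL2 and 953 for BIK, so genes with many isoforms are understated. For BBC3 the union is 3180 bases and the longest transcript 1838, and for PMAIP1 2235 and 1948. The same lengths are 2587 and 1358 for BAX and 3314 and 2610 for BCL2L1. The ranks of PMAIP1 over BBC3 and of BCL2L1 over BAX therefore need not hold in every group with another length.

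**Figure D4:**
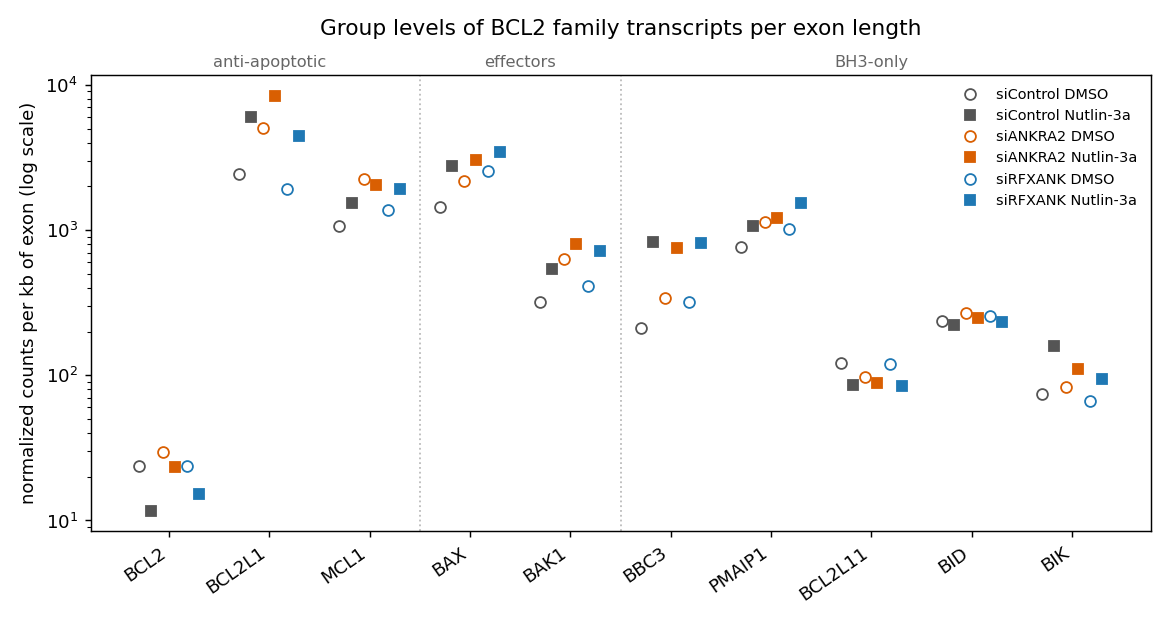
Group levels of the 10 members in normalized counts per kb of exon are plotted on a log axis, with open circles for DMSO, filled squares for Nutlin-3a and colours for the siRNAs, without error bars because the files give no value per library. With exon lengths taken as unions over isoforms, BCL2L1 is at the top in 5 groups and BCL2 at the bottom in all 6.

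Pairs of opposing members moved differently over the groups. These pairs were picked with the values in view and are given without a test. The log2 ratio of BBC3 to BCL2L1, set to 0 in siControl DMSO, was 0.67 in siControl Nutlin-3a, -0.34 and 0.05 in siANKRA2 cells in DMSO and Nutlin-3a, and 0.94 and 1.10 in siRFXANK cells. Relative to its inhibitor BCL2L1, BBC3 was thus lowest in siANKRA2 cells in DMSO and highest in siRFXANK cells in Nutlin-3a. The same ratio for BAX over BCL2 was 1.94 in siControl Nutlin-3a, 0.27 and 1.10 in siANKRA2 cells, and 0.81 and 1.88 in siRFXANK cells. BAX over BCL2L1 was -0.37 in siControl Nutlin-3a, -0.46 and -0.71 in siANKRA2 cells, and 1.16 and 0.40 in siRFXANK cells. This last ratio was above 0 in both siRFXANK groups and below 0 in both siANKRA2 groups.

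The genes whose profile over the 6 groups was most like that of a member were sought among 13102 or 13103 genes with a mean of at least 100, by the Euclidean distance of centred log2 levels. The nearest to BAK1 was its pseudogene BAK1P1 (distance 0.107 log2 units), which shares 17.0% of the 31-base words of the longest BAK1 transcript, so that reads of the pair may have been split. BIK was nearest to DDB2, a DNA repair gene and p53 target (distance 0.188). BCL2L1 was nearest to COQ8A (0.137), which serves coenzyme Q synthesis. BBC3 had TM7SF3 as its nearest gene (0.197), PMAIP1 had WHAMM (0.13), MCL1 had the hexokinase gene HK1 (0.193), and BCL2 had AC106795.1 (0.104). For BID the nearest was SAP30BP (0.0591), and for BCL2L11 the pseudogene TECRP1 (0.108). No member appeared among the 3 nearest genes of another, which says little with 3 places among so many genes. BIK, with a mean of 93.3, could not appear.

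Of 11 other BCL2 family genes, 9 were tested for the response of siControl cells, and 4 rose and 3 fell, beside 21.9% and 21.2% of all genes. Their median was 0.46 on the log2 scale, against 0.02 over all genes. BCL2L12 fell (log2 fold change -1.06, SE 0.0584), while BCL2L2, which encodes BCL-W, rose (0.58, SE 0.0829) and so did BOK, an effector relative (0.50, SE 0.0452). With siANKRA2 the BH3-only gene HRK was higher in DMSO (1.20, SE 0.108) and in Nutlin-3a (1.22, SE 0.11). With siRFXANK it was lower, by log2 fold changes of -0.84 (SE 0.134) and -0.58 (SE 0.131).

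Downstream of the family, 5 of 19 apoptosome and caspase genes were higher and 8 lower after Nutlin-3a in siControl cells, beside the same 21.9% and 21.2% of all genes. Their median of 0.01 was close to the 0.02 of all genes. BIRC5, which encodes survivin, fell (log2 fold change -1.72, SE 0.0438) and BIRC3, a relative of XIAP, rose (0.97, SE 0.0634). With siANKRA2 in DMSO, 8 of these genes were higher and 6 lower, where 24.3% and 24.5% of all genes were. APAF1, which encodes the platform for caspase-9 activation, was lower by a log2 fold change of -1.38 (SE 0.0926). CASP2 was lower with siRFXANK in DMSO (-1.58, SE 0.0642) and in Nutlin-3a (-1.45, SE 0.0725). These decreases stood beside the higher levels of BAX, BAK1 and BBC3 in the same DMSO groups.

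Of 14 genes for mitochondrial partners and regulators of BCL2 proteins, 2 rose and 7 fell after Nutlin-3a in siControl cells, again beside 21.9% and 21.2% of all genes. FBXW7, part of a ubiquitin ligase that targets MCL1, rose there (1.25, SE 0.0589) and had a smaller response in siANKRA2 cells (difference -0.83, SE 0.0832). With siRFXANK in DMSO, 1 of the 14 was higher and 11 were lower, beside 20.9% and 21.2% of all genes, with a median of -0.21 against 0.01. OPA1, which shapes the mitochondrial cristae, was lower there (-0.72, SE 0.0516), as was HUWE1, another ubiquitin ligase for MCL1 (-0.72, SE 0.162). In Nutlin-3a the count was 2 higher and 5 lower, beside 19.8% and 19.6% of all genes, with a median of 0.03 against 0.02.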

How the data were processed

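The authors deposited 6 DESeq2 comparison tables. In these the mean is a signal in normalized counts over all libraries, the log2 column is a fold change with its standard error, the statistic is a Wald score, and raw and adjusted p-values follow, all as deposited by the authors. The submitters' processing notes name bcl2fastq 2.20.0.422, Trimmomatic 0.39, FastQC 0.11.9, cutadapt 2.10, SAMtools 1.10, Picard, featureCounts 1.6.5, DESeq2 1.20.0 and hg38. The aligner, annotation and strand setting are not given in the sources used here. Because no value per library was at hand, no count model was refitted and the authors' fold changes, errors and p-values carry the results. Depth is unknown and no interval from counts is given.

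Adding up the siControl and siANKRA2 tables around the design fixed their signs relative to each other (largest miss 1.38e-14 as read, median miss 0.55 with the opposite sign). The miss stays the same if all of these tables change sign together. As read, ANKRA2 was lower with siANKRA2, by log2 fold changes of -1.81 in DMSO and -2.58 in Nutlin-3a. For siRFXANK the sign was fixed by RFXANK itself. Computed here with Python 3.11.15, numpy 2.4.6, pandas 2.3.3 and scipy 1.17.1 were the siRFXANK response, the differences between responses (a two-sided normal test on the difference and its SE, adjusted by Benjamini-Hochberg over all genes tested), group levels and levels per kb. Fold changes use the authors' size factors. Group levels assume that the deposited mean covers the 18 libraries equally. For ANKRA2 that mean was 31568 normalized counts, against 203 rebuilt from the standard errors, so its level is not given. Tables held 22738 to 26702 genes. Code was tested on simulated data. Of 26702 gene IDs, 26659 were in GENCODE 29.

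Named genes were the members, the 2 targets, the 3 nearest profiles of each member (of which the nearest is named, for 9 members) and, in each list, called genes with the 3 largest changes at a mean of at least 100. Some genes that this rule names are not reported here. Members and lists were chosen with earlier results of these data known. Alternatives were other thresholds, filters on the mean, another centring and a t distribution.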

Additional observations from a re-analysis of the deposited data

Results flagged for a closer look

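The response to Nutlin-3a differed from that of siControl cells by a test of the difference itself for 9 members in siANKRA2 cells. On the log2 scale the differences were -0.84 for BBC3, -0.67 for MCL1, -0.56 for BCL2L1, -0.44 for BAX, -0.43 for BAK1 and -0.38 for PMAIP1. BIK differed by -0.67, BCL2 by 0.67 and BCL2L11 by 0.34. Of all genes, 12.5% had a lower and 11.4% a higher response in siANKRA2 cells. These are differences of responses, and in Nutlin-3a itself siANKRA2 cells had 7 members higher and 2 lower than siControl cells. There, 24.6% of all genes were higher and 25.5% lower. In siRFXANK cells the difference was called for BBC3 (-0.61) and BAX (-0.50), where 9.64% of all genes were lower and 11.6% higher. Whether the differences of siANKRA2 and siRFXANK cells differ from each other was not tested.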

How the results depend on the processing

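The count of called members stayed within 1.5 times under every alternative run except a minimum absolute log2 value of 1. With that minimum, the Nutlin-3a response kept 4 members in siControl cells, 1 in siANKRA2 cells and 2 in siRFXANK cells. The effect of siANKRA2 kept 2 in DMSO and 0 in Nutlin-3a, that of siRFXANK kept 0 and 0, and the differences between responses kept 0 and 0. The share of all genes past this minimum is not given here, so these counts cannot be set against it. The thresholds, the filters on the mean and the t distribution leave each log2 value as it is, so they do not test its direction. Only the other centring shifted the values, and by little. BBC3 with siANKRA2 in Nutlin-3a, for instance, went from -0.13 to -0.12 (adjusted p = 0.0559 after centring). No member changed direction with that centring. BIK has a mean of 93.3 normalized counts, so a filter at 100 removes it, together with its calls wherever it had one. Other calls were lost or gained for PMAIP1 and BCL2L11 in the siANKRA2 response, BAX, BBC3 and BID with siANKRA2 in Nutlin-3a, BIK and BID in the siRFXANK response, and BIK and BCL2L1 in the differences. BAX with siANKRA2 in Nutlin-3a, for example, missed a threshold of 0.01 (DESeq2 adjusted p = 0.0152).

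Leaving out a library in turn was not run, since the tables hold no value per library. No paired analysis was possible because the files give comparisons of groups and no columns that carry replicate numbers. Without counts per library the depth behind each value is unknown, and BIK and BCL2, with the fewest counts, had the widest errors.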
